A study of Mus musculus with 28 samples.

Results

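Oxidative phosphorylation is carried out by 5 multi-subunit complexes of the inner mitochondrial membrane. The genes described here are protein-coding genes that carry the symbols of their subunits, among them 8 assembly factors of complex I. A symbol alone does not make a member a structural subunit. Members were taken by symbol, after Ensembl identifiers were matched to symbols: every gene whose symbol begins with Nduf, Uqcr, Atp5 or Cox4 to Cox8, the 4 Sdh genes, and the mitochondrially encoded mt-Nd, mt-Co, mt-Cytb and mt-Atp genes. This gave 107 of the 54446 genes listed in each library, 94 of them in the nucleus and 13 on the mitochondrial genome. The nuclear members comprised 46 of complex I (8 of them Ndufaf assembly factors), 4 of complex II, 8 of complex III, 18 of complex IV and 18 of complex V. The mitochondrial members comprised 7 of complex I, 1 of complex III, 3 of complex IV and 2 of complex V.

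Complexes I to IV pass electrons from NADH and succinate to oxygen and pump protons, except complex II, and complex V (ATP synthase) uses the proton gradient to make ATP. Complex II is the only one whose subunits are all nuclear, so the other complexes need matched output from a nuclear genome read by RNA polymerase II and a mitochondrial genome read by its own polymerase, Polrmt. Both liver and kidney are rich in mitochondria, and the tubules of the kidney rely on them for solute transport.

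Male C57BL/6 mice (the J substrain by the study's methods) aged 8 weeks were gavaged for 7 days with nicotinamide mononucleotide (NMN), a precursor of NAD+, or with water, and polyA RNA of liver and kidney was sequenced in 28 libraries. The 1340 mg/kg/d schedule, gavaged once a day, had 4 NMN and 4 water mice per organ. The 2680 mg/kg/d schedule, gavaged in 2 daily doses, had 3 and 3. Dose and number of gavages therefore changed together, and the water mice of each schedule are the controls of that schedule only. The study calls the replicates of a group biological replicates, the labels give them only a number, and p-values measure the spread between these libraries.

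Between 12688324 and 33872983 reads were counted on genes per library. Expression is given as CPM, read counts scaled to a common library size by the TMM method over all 28 libraries, and fold changes come from the quasi-likelihood test of edgeR, whose p-values were adjusted by Benjamini and Hochberg's method over all genes tested in that comparison. A gene is called higher or lower where its adjusted p was under 0.05. The organ labels matched their defining markers. Alb, the serum albumin of hepatocytes, averaged 99900 CPM in the liver and 61.3 CPM in the kidney among water mice at 1340 mg/kg/d. Slc34a1, the phosphate carrier of the proximal tubule, averaged 4668 CPM in the kidney and 11.3 CPM in the liver of the same mice. In whole organs, fewer cells of a type and less RNA per cell cannot be told apart. One library stood apart. In the liver library of NMN replicate 4 at 1340 mg/kg/d, 18.1 reads outside annotated genes were listed per 100 counted reads, against 6.10 to 9.37 in the other 7 liver libraries of that schedule.

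The mitochondrial members could be read only in part. Counts were kept for reads with 1 alignment, and the mitochondrial genome has copies in the nuclear genome, annotated as pseudogenes. Among the 13 mitochondrial members, 9 shared 50-base words with other annotated genes and 7 shared more than 20% of their words. The cytochrome c oxidase subunit mt-Co2 shared 100% of its words with Gm28661 and Gm13341, mt-Co3 99.9%, mt-Atp6 99.5%, mt-Nd4l 98.8% and mt-Nd3 98%. Those 5 genes had between 0 and 16 reads in any library. mt-Nd1, mt-Nd6 and mt-Cytb shared no word with another gene. mt-Atp8 shared none either and had 1 read over the 28 libraries. The first 90 bases of mt-Co2 (GENCODE M21 transcripts) are shown with those of its pseudogene to let an identical copy be seen, and beneath them are the first 90 bases of mt-Cytb with those of its closest annotated pseudogene. Capitals mark bases at which the pseudogene differs from the member above it.
mt-Co2: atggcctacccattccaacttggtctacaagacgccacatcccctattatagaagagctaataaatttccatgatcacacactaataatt
Gm28661: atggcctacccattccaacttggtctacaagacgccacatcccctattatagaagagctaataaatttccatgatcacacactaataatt
mt-Cytb: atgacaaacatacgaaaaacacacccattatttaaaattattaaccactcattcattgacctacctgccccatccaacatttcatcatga
Gm11410: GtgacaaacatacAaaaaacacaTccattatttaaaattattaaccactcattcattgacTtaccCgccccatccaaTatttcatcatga
The mt-Co2 pair differed at 0 of 90 positions. The mt-Cytb pair differed at 6 positions, which are A1G, G14A, C24T, C61T, T66C and C78T with the base of mt-Cytb first and positions counted from 1 at the 5′ end of the stretch. The annotated copies themselves held between 0.000223% and 0.00185% of the counted reads, so the reads of mt-Co2, mt-Co3 and mt-Atp6 were not found there either. mt-Nd4 and mt-Co1 shared 62.2% and 51.1% of their words with pseudogenes and are partial measures. mt-Nd5 and mt-Nd6 overlap on opposite strands, and counting without regard to strand cannot separate their shared bases.

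Per kilobase of transcript, the 7 mitochondrial members that could be counted stood above every nuclear member in both organs. In the liver of water mice, both schedules together, the order per kb was mt-Co1 at 15500 CPM, mt-Cytb at 13580, mt-Nd1 at 9675, mt-Nd2 at 9078, mt-Nd6 at 5576, mt-Nd4 at 5082 and mt-Nd5 at 2913. Lengths were taken in full, so the places of mt-Co1 and mt-Nd4, which are partial measures, hold only for the reads that could be counted. The first nuclear members were Atp5b, the catalytic subunit of ATP synthase, at 818.9 CPM per kb, and Ndufa4, counted by its symbol in complex I and now known as a subunit of cytochrome c oxidase, at 811.3. Over the kidney water mice of both schedules mt-Cytb led at 21630 CPM per kb, followed by mt-Co1 at 18080 and mt-Nd1 at 15410, and Atp5b again led the nuclear members at 978.9. Between the schedules these members moved by different amounts in the kidney (log2 fold changes of 1.33 for mt-Cytb and 1.62 for mt-Nd1). The order therefore need not hold within a schedule. Cox7b2, Cox8c and the second Atp5o identifier had at most 2 reads in any library, and 91 of the 94 nuclear members were tested in the kidney and 86 or 87 in the liver.

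The share of reads on the mitochondrial members separated organs and schedules. In water mice of the 1340 mg/kg/d schedule liver libraries had 4.475%, 3.502%, 4.948% and 3.736%, and kidney libraries 8.334%, 8.694%, 10.04% and 9.168%. At 2680 mg/kg/d liver libraries had 6.795%, 5.627% and 7.237%, and kidney libraries 20.1%, 19.58% and 21.34%. Within each organ every water library of the 2680 mg/kg/d schedule lay above every one of the 1340 mg/kg/d schedule. NMN libraries lay beside their own controls, at 3.934% to 5.104% (1340 mg/kg/d) and 6.865% to 9.049% (2680 mg/kg/d) for the liver. For the kidney these ranges were 8.225% to 9.722% and 19.83% to 20.54%. Nuclear members, whose share of the same total is lowered by a higher mitochondrial share, had a mean of 1.35% ± 0.153 (SD, n = 4) against 1.23% ± 0.0612 (SD, n = 3) of reads in liver water mice, groups that overlap, and 2.34% ± 0.136 (SD, n = 4) against 1.90% ± 0.0565 (SD, n = 3) in kidney water mice, groups that do not. On the TMM scale the summed level of the nuclear members in liver water mice averaged 17920 CPM at 1340 and 18480 CPM at 2680 mg/kg/d. In kidney water mice it averaged 16340 CPM (14790 to 18400) and 15140 CPM (14940 to 15320), ranges that overlap. In kidney NMN mice at 2680 mg/kg/d it was 15700 to 17070 CPM, above the water range of that schedule. Their nuclear share of reads was 1.994% to 2.11%, against 1.832% to 1.938% in water, also without overlap. In each other comparison of NMN with water both measures overlapped.

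**Figure D1:**
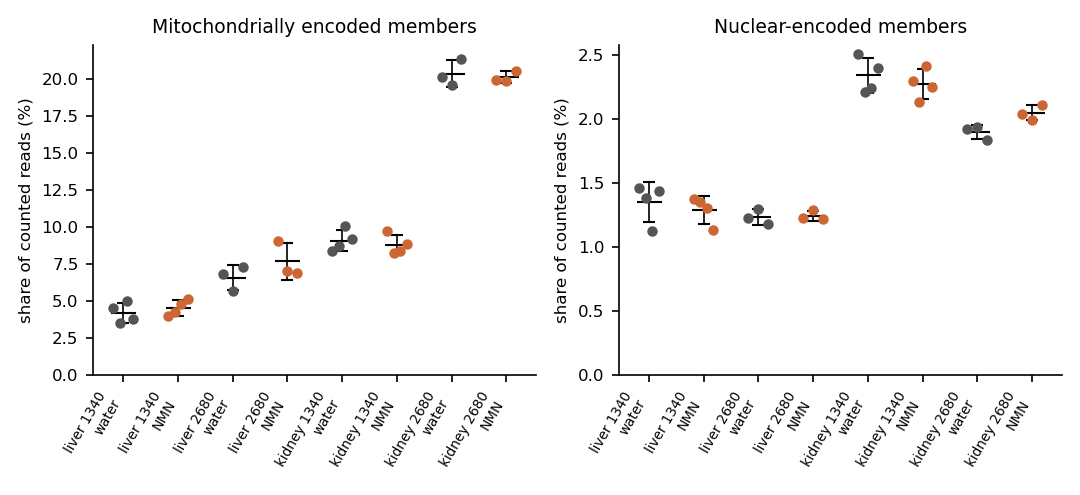
Share of counted reads, in percent, on the mitochondrially encoded members (left) and the nuclear members (right). Each point is 1 library, gray for water and orange for NMN, and bars give the mean and SD of a group. Kidney libraries at 2680 mg/kg/d sit between 19.58% and 21.34% for mitochondrial members, above all others.

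Water mice of the schedules were compared within each organ. Mitochondrially encoded transcripts were higher at 2680 than at 1340 mg/kg/d in both organs, by a median of 0.97 on the log2 scale in the liver and 1.58 in the kidney, while the median of the nuclear members was 0.01 and -0.09, the former turning to -0.13 on library totals without TMM, where the median of all genes moved to -0.17 in the liver and -0.18 in the kidney. Among the nuclear members a small set of subunits was called lower in both organs, led by Atp5e, the epsilon subunit of ATP synthase, and Ndufs5, an accessory subunit of complex I.

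In the liver 5 of 7 tested mitochondrial members were called higher and 0 lower, beside 1.74% of all 13412 tested genes called higher. mt-Nd1, a core subunit of complex I, measured 6472, 5573, 5826 and 6581 CPM in the 1340 mg/kg/d water mice and 15210, 11920 and 13230 CPM in the 2680 mg/kg/d water mice. The groups did not overlap, and the log2 fold change was 1.10 (SE 0.116, edgeR adjusted p = 2.39e-05). The other called members were mt-Nd2 at 1.08, mt-Nd4 at 1.02, mt-Nd6 at 0.97 and mt-Cytb, the cytochrome of complex III, at 0.76. mt-Nd5 at 0.82 (edgeR adjusted p = 0.0911) and mt-Co1 at 0.51 (edgeR adjusted p = 0.0629) did not pass. DESeq2 called both, and edgeR without the filter on low counts called mt-Co1.

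In the kidney all 7 tested mitochondrial members were called higher, beside 7.05% of 15989 tested genes. mt-Nd1 measured 7736, 6788, 8044 and 8194 CPM at 1340 mg/kg/d and 24430, 22440 and 25620 CPM at 2680 mg/kg/d, without overlap and with a log2 fold change of 1.62 (SE 0.111, edgeR adjusted p = 7.55e-09). mt-Nd6, encoded on the other strand from the rest, rose by 1.74, mt-Nd2 by 1.71, mt-Nd4 by 1.58, mt-Cytb by 1.33, mt-Nd5 by 1.2 and mt-Co1, the catalytic subunit of cytochrome c oxidase, by 0.95 on the log2 scale. Fold changes of mitochondrial members were larger in the kidney than in the liver for 7 of 7, by a median of 0.55, but 0 passed the edgeR test of that difference (beside 1.26% of 15912 genes called higher and 0.603% called lower), with 5 at an unadjusted p under 0.05 and 3 called by DESeq2, and the closest was mt-Nd6 at 0.76 (edgeR adjusted p = 0.0577). Without liver water replicate 2 of the 1340 mg/kg/d schedule 1 of them passed. For nuclear members the median of that difference was -0.14 and 0 of 91 passed by edgeR or DESeq2, with 2 at an unadjusted p under 0.05.

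Mitochondrial ribosomal RNA moved against the mitochondrial messengers. mt-Rnr2, the large ribosomal RNA, measured 2805, 2830, 2935 and 3346 CPM in the liver at 1340 mg/kg/d and 899.3, 908.6 and 1050 CPM at 2680 mg/kg/d, a log2 fold change of -1.68 (SE 0.16, edgeR adjusted p = 7.82e-06). In the kidney its log2 fold change was -1.51, and that of mt-Rnr1, the small ribosomal RNA, was -1.52 in the liver and -1.0 in the kidney. The share of reads on both rRNAs fell from a mean of 0.406% to 0.121% in the liver and from 0.653% to 0.235% in the kidney. Since all of these come from the same genome, their opposite directions are given side by side, and library preparation was not tested.

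Among the nuclear members of the liver, 0 of 87 were called higher and 7 lower, beside 3.65% of all tested genes called lower. In the kidney 7 of 91 were called higher and 28 lower, beside 10.2% called lower. Ndufs5 measured 48.5, 39.2, 35.0 and 50.3 CPM in the liver at 1340 mg/kg/d and 21.6, 21.7 and 21.8 CPM at 2680 mg/kg/d, a log2 fold change of -1.03 (SE 0.165, edgeR adjusted p = 0.00139). In the kidney it measured 32.1, 27.8, 28.5 and 32 CPM against 12.6, 15.4 and 13.4 CPM, a log2 fold change of -1.16 (SE 0.108, edgeR adjusted p = 6.9e-07). Neither organ showed an overlap between the schedules for Ndufs5, which shares 21.7% of its 50-base words with the processed pseudogene BC002163.

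Atp5e shares no word with another gene. It measured 284.5, 235.4, 176.1 and 309.8 CPM against 126.1, 126.1 and 100.7 CPM in the liver (log2 fold change -1.13, SE 0.186, edgeR adjusted p = 0.00156). In the kidney it measured 184.4, 125.9, 134.3 and 177.3 CPM against 72.8, 63.5 and 55.5 CPM (log2 fold change -1.31, SE 0.15, edgeR adjusted p = 1.44e-05). All 7 members called lower in the liver were also called lower in the kidney, where they are 25% of the 28. Besides Atp5e and Ndufs5 these were Cox6c and Cox7c, structural subunits of complex IV, the complex I accessory subunits Ndufb2 and Ndufc1, and Ndufab1, the mitochondrial acyl carrier protein. Cox7c shares 22.1% of its words with other genes. Without liver water replicate 3 at 2680 mg/kg/d the liver count of nuclear members was 4, and Ndufb2 no longer passed, and on library totals without TMM it was 16.

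The promoters of the 2 leading members are shown because both fell in both organs: 250 bases upstream of the RefSeq start, GRCm38.p6, 5′ to 3′ on the gene's strand, with capitals marking a match to a motif described next. Ndufs5 lies at chr4:123718187-123718436 on the minus strand and Atp5e at chr2:174464102-174464351 on the minus strand.
Ndufs5: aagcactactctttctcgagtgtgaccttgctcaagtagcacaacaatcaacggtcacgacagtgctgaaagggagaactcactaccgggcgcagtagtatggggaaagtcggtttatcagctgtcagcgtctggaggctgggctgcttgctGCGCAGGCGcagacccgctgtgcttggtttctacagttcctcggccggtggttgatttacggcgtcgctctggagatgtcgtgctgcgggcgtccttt
Atp5e: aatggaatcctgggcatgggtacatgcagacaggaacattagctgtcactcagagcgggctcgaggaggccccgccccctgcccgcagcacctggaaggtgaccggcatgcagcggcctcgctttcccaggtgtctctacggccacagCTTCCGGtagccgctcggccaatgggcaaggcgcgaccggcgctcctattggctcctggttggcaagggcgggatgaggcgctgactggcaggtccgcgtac
Motifs were searched on both strands from 250 bases before to 50 after the start in the 76 nuclear members with a promoter entry. The NRF1 letters GCGCANGCG were in 28.9% of them, against 7.03% of 27025 promoters. The ETS letters CCGGAAG, bound by GABP, were in 23.7% against 9.93%, the YY1 letters AANATGGC in 25% against 6.96%, and the ERR letters TCAAGGTCA in 2.63% against 0.466%. At least 1 of the 4 was present in 26 of 40 complex I promoters, 3 of 3 of complex II, 3 of 5 of complex III, 4 of 13 of complex IV and 12 of 15 of complex V. A match is a description of letters and not evidence of binding.

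The kidney calls between schedules are given by complex beside 7.05% of all genes called higher and 10.2% lower, and no difference between complexes was tested. Complex III had 1 member higher and 4 lower of 8, complex V 2 higher and 7 lower of 17, complex II 0 higher and 2 lower of 4, complex I without Ndufaf 3 higher and 10 lower of 38, and complex IV 1 higher and 4 lower of 16. Among 10 listed core subunits 7 were called lower in the kidney and 0 higher, led by Uqcrfs1, the Rieske iron-sulfur protein, at -0.69, and Ndufv1, which binds NADH in complex I, at -0.66. Uqcrc1 at -0.45, Cox5a at -0.42, Atp5a1 at -0.39, Cox4i1 at -0.33 and Sdhb at -0.28 were the others, while Ndufs1 at 0.22, Atp5b at -0.04 and Sdha at 0.00 did not pass. The members called higher in the kidney included Uqcrb, a ubiquinone-binding subunit of complex III, at 0.65, Atp5h and Ndufv3 at 0.48, Atp5s at 0.46 and Ndufv2 at 0.39. In the liver 0 of the 10 core subunits passed the edgeR test, with values from -0.38 for Uqcrfs1 to 0.40 for Ndufs1.

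Across the 94 members tested in both organs the schedule differences of liver and kidney had Pearson's r = 0.912 and Spearman's rho = 0.907, and across the 87 nuclear ones 0.880 and 0.883. Over all 12825 genes tested in both organs these were 0.524 and 0.477. These are descriptions across genes, which are not independent replicates, and both organs may come from the same mice.

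**Figure D2:**
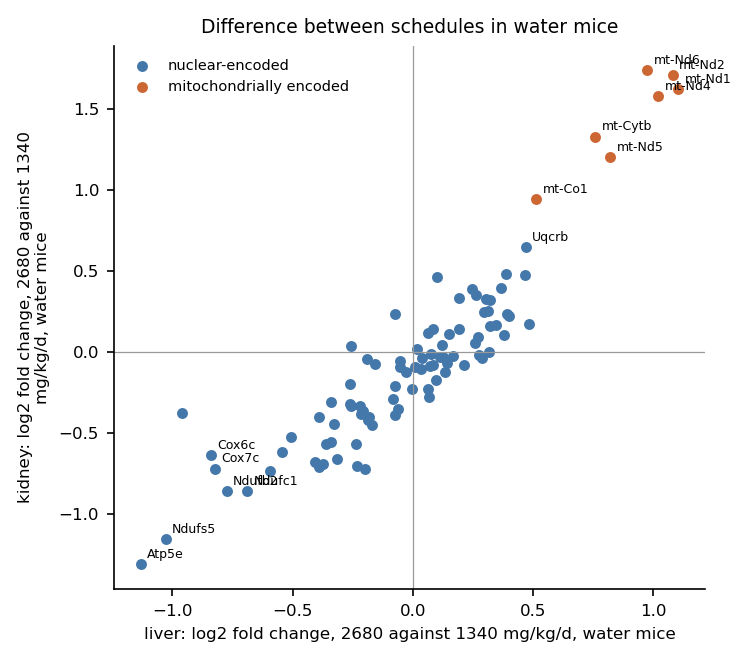
Log2 fold change between the schedules (2680 against 1340 mg/kg/d) in water mice, liver on the horizontal and kidney on the vertical axis, for the 94 members tested in both organs. Blue points are 87 nuclear members and orange points 7 mitochondrial ones, which stand together at the upper right, from mt-Co1 (0.51, 0.95) to mt-Nd1 (1.10, 1.62).

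Several other measures moved with the schedules. Reads with more than 1 alignment were 12.4 to 16.4 per 100 counted reads in liver libraries at 1340 mg/kg/d and 16.9 to 18.6 at 2680 mg/kg/d, and 13.5 to 15.5 against 26 to 28.2 in the kidney. All 6 proximal tubule markers averaged lower in liver water mice at 2680 mg/kg/d, Slc34a1 at 11.3 against 0.929 CPM. The 6 hepatocyte markers in kidney water mice split, with Alb (61.3 against 8.40 CPM), Apoa1 and Cps1 lower and Cyp2e1 (1124 against 1707 CPM), Ttr and Serpina1a higher at 2680 mg/kg/d. Of 7 fat markers all 7 were tested in the kidney, where 3 were called higher and 0 lower, and 2 were tested in the liver. Their summed level was 55.8, 50.8, 37.3 and 97.7 CPM in kidney water mice at 1340 mg/kg/d and 216.6, 310.0 and 373.4 CPM at 2680 mg/kg/d, with Fabp4 the most abundant. In the liver Ucp1, Cidea and Plin1 stood at 0 in nearly every library and Elovl3, which liver also makes, carried the sum. Endothelial markers were called higher for 3 of 5 in the liver, beside 1.74% of all genes, and for 2 of 5 in the kidney, beside 7.05%. Reads outside annotated genes were 6.16 to 9.37 per 100 counted in liver water mice at 1340 mg/kg/d and 4.10 to 4.56 at 2680 mg/kg/d. In the kidney they were 11.96 to 16.9 and 9.54 to 10.4, also without overlap. The part of each in the result was not tested. The schedule, the number of gavages, and any difference in when or how the libraries were made cannot be told apart.

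Of the regulators, Esrra, the nuclear receptor of mitochondrial genes, was lower in kidney water mice at 2680 mg/kg/d by 0.48 on the log2 scale (log2 fold change -0.48, edgeR adjusted p = 0.00139), and Ppargc1a, its coactivator, higher by 0.29 (edgeR adjusted p = 0.0395). In the liver Esrra was at -0.44 and Ppargc1a at 0.51, neither called. Nrf1, Gabpa, Tfam, Polrmt and Lrpprc did not pass in either organ, with values from -0.23 for Lrpprc in the kidney to 0.15 for Gabpa in the kidney. The lists around the pathway stand beside 1.74% of all genes called higher and 3.65% lower in the liver. For the kidney these shares were 7.05% and 10.2%. Of these lists, the mitochondrial ribosome had 2 higher and 2 lower of 78 in the liver and 12 higher and 8 lower of 78 in the kidney. Assembly factors outside the member rule had 0 higher and 1 lower of 42 in the liver and 3 higher and 9 lower of 42 in the kidney. Mitochondrial DNA and RNA factors had 0 and 0 of 32, then 8 and 2 of 32, electron carriers and their makers 1 and 0 of 20, then 2 and 4 of 20, and the ATP and proton exchange genes 1 and 2 of 10, then 2 and 4 of 12. The tricarboxylic acid cycle had 1 higher and 0 lower of 14 for the liver, against 1 and 1 for the kidney, regulators 0 and 0 of 22 and 4 and 4 of 22, and stress and protein quality genes 0 and 0 of 18 and 0 and 3 of 18.

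Kidney against liver in the 7 water mice of each organ set nuclear and mitochondrial members apart. Relative to the TMM scale, which puts the median of all 15912 tested genes at 0.16, nuclear members were lower in the kidney by a median log2 fold change of -0.29 and mitochondrial members higher by a median of 0.41, but without TMM the nuclear median turned to 0.69, the mitochondrial one was 1.39 and that of all genes 1.13. The mitochondrial median lay below that of all genes (0.47 against 0.52) when genes with low counts were kept. Of the tissue-restricted isoforms of complex IV, Cox7a1 was called higher in the kidney. Cox4i2, Cox6a2, Cox6b2 and Cox8b passed the filter on low counts only through the kidney.

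Of 91 tested nuclear members 10 were called higher in the kidney and 52 lower, beside 41.8% and 34.4% of all genes. Cox4i2, Cox6a2, Cox6b2 and Cox8b, 4 of the 10, passed the filter on low counts only through the kidney, so that their calls are no support. With the replicate number, which paired liver and kidney libraries, as a block, 68 nuclear members were called. By complex the calls were 3 higher and 22 lower of 38 in complex I, 0 and 2 of 4 in complex II, 0 and 6 of 8 in complex III, 5 and 5 of 16 in complex IV, 1 and 12 of 17 in complex V, and 1 and 5 of 8 among the Ndufaf factors. The 5 higher calls of complex IV include Cox4i2, Cox6a2, Cox6b2 and Cox8b. Within the 1340 mg/kg/d schedule alone 37 nuclear members passed and within the 2680 mg/kg/d schedule alone 58. Of the 10 core subunits Ndufs1 at 0.38 was called higher and 5 were called lower, the lowest being Cox5a at -0.64. These directions are relative to the TMM scale, on which 19 of 91 nuclear members were above 0, and on library totals 89 of 91 were, with all 10 core subunits among them.

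Uqcrq, a small subunit of complex III, was the member lowest in the kidney. It measured 641.8, 580.0, 450.6 and 683.6 CPM in liver and 250.4, 168.9, 197.1 and 225.8 CPM in kidney water mice at 1340 mg/kg/d, and 565.2, 556.5 and 446.2 against 182.1, 156.7 and 163.0 CPM at 2680 mg/kg/d. Every kidney value lay below every liver value, and the log2 fold change was -1.61 (SE 0.11, edgeR adjusted p = 8.19e-11). On library totals without TMM it was -0.63, and the groups overlapped between the schedules. Next came the assembly factors Ndufaf8 at -0.99 and Ndufaf1 at -0.89, then Ndufa4l2 at -0.87 and Ndufa7 at -0.86, of which Ndufaf1, Ndufa4l2 and Ndufa7 turned to between 0.09 and 0.12 without TMM, and Ndufaf8 to -0.02. Ndufa4l2 lies opposite Shmt2 on the other strand, so its reads are uncertain.

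Among the isoforms of complex IV, Cox7a1, known as the heart and muscle form, measured 8.66, 8.66, 6.88 and 9.04 CPM in kidney water mice at 1340 mg/kg/d and 6.77, 5.41 and 7.40 CPM at 2680 mg/kg/d, against 0.0823 to 1.61 CPM in the 7 liver water libraries. The groups did not overlap, and the log2 fold change was 3.26 (SE 0.303, edgeR adjusted p = 9.12e-09). These liver values are low as well, so the size of this fold is uncertain. In the liver at 2680 mg/kg/d Cox7a1 was not among the members tested for NMN against water. Cox6b2, known from testis, ranged from 2.48 to 6.85 CPM in the kidney and from 0 to 0.513 CPM in the liver. Since it passed the filter on low counts only through the kidney, this separation is no support. Cox4i2, known from lung, and Cox6a2, known from heart and muscle, were below 1.60 CPM in every water library. No fold is given for these or for Cox8b, since the liver values are near 0. Of their ubiquitous partners, Cox4i1 was at a log2 fold change of -0.34, Cox6a1 at -0.24, Cox6b1 at -0.28, Cox7a2 at -0.22 and Cox8a at 0.19, and of these Cox4i1 and Cox6b1 were called. In other isoform families Atp5g2 stood at -0.80, Atp5g1 at -0.65 and Atp5g3 at -0.38, and Ndufa4 at -0.67, all called lower on the TMM scale, Cox7a2l at -0.71 was called too, and Cox7b at -0.17 was not.

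Cox8b, known from muscle and brown fat, measured 1.5, 1.21, 0.402 and 3.04 CPM in kidney water mice at 1340 mg/kg/d, 5.68, 5.45 and 6.78 CPM at 2680 mg/kg/d, and 0 to 0.658 CPM in the liver. Ucp1, the uncoupling protein of brown fat, measured 3.88, 3.53, 1.61 and 10.3 CPM, then 15.6, 38.4 and 48.5 CPM in the same kidney libraries, and 0 in every liver library. Cidea followed the same order of schedules at 1.79 to 7.34 and 15.7 to 25.6 CPM. In kidney NMN mice of the 1340 mg/kg/d schedule Cox8b was at 0, 0.102, 3.54 and 0.241 CPM and Ucp1 at 0, 0.307, 15.7 and 0.386 CPM, so the same library was high for both. Of the 7 fat markers, which include Ucp1, 6 were called higher and 1 lower in the kidney, but Ucp1, Cidea, Lep, Plin1 and Adipoq were at or near 0 in the liver, so that their calls are no support either. The background was 41.8% and 34.4% of all genes, and the part of fat in the Cox8b and Cox7a1 results was not tested.

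**Figure D3:**
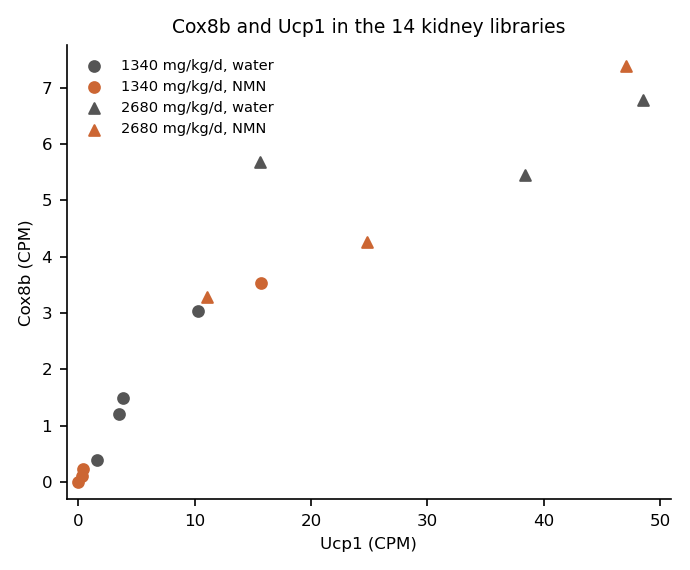
Cox8b against Ucp1 in the 14 kidney libraries, both in CPM. Circles are 1340 and triangles 2680 mg/kg/d, gray water and orange NMN. The libraries low for Ucp1 are low for Cox8b, and the circle apart from the other 3 orange ones is NMN replicate 3 at 1340 mg/kg/d, with 15.7 CPM of Ucp1 and 3.54 CPM of Cox8b.

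Of the mitochondrial members 5 of 7 were called higher in the kidney, beside 41.8% of all genes: mt-Nd5 at 0.88, mt-Cytb at 0.51, mt-Nd1 at 0.49, mt-Nd4 at 0.41 and mt-Nd6 at 0.36, while mt-Nd2 at 0.23 and mt-Co1 at 0.11 did not pass. Within the 1340 mg/kg/d schedule alone their median was 0.21 and 2 were called, and within the 2680 mg/kg/d schedule alone it was 0.82 and 7 were called. On the regulator side Ppargc1a was higher in the kidney by 2.85 and Esrra by 0.93 on the log2 scale, and Lrpprc at -0.69, Tfam at -0.56 and Gabpa at -0.36 were called lower, whereas Nrf1 at -0.28 and Polrmt at -0.02 did not pass. The lists around the pathway are read beside 41.8% of all genes called higher and 34.4% lower, with directions relative to the TMM scale, since without TMM the median of all genes was 1.13. The ATP and proton exchange genes had 10 higher and 1 lower of 12, led by Slc25a4, the ADP/ATP carrier, named after its value was seen, at 4.97. The tricarboxylic acid cycle had 8 and 2 of 14, electron carriers and their makers 4 and 11 of 20, and regulators 8 and 8 of 22. The mitochondrial ribosome had 4 higher and 63 lower of 78, assembly factors 5 and 25 of 42, mitochondrial DNA and RNA factors 2 and 19 of 32, and stress and protein quality genes 1 and 13 of 18.

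**Figure D4:**
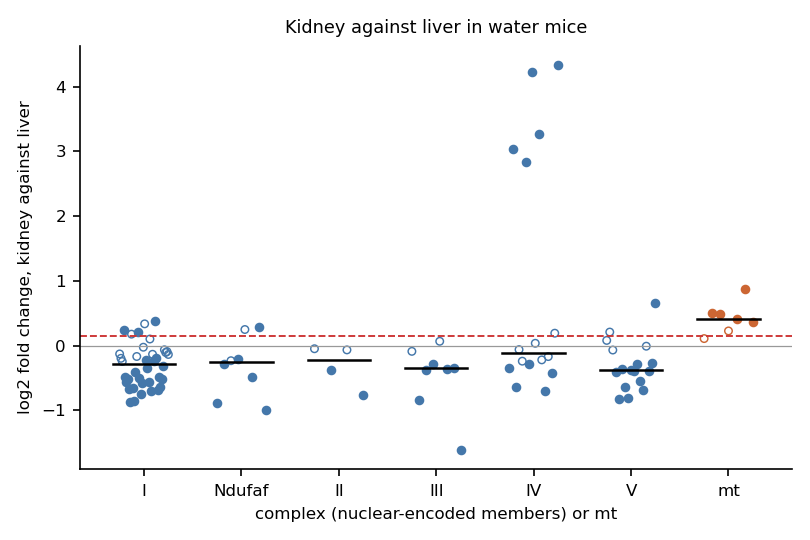
Log2 fold change of kidney against liver in water mice for each tested member, by complex for nuclear members, with the Ndufaf factors apart and the mitochondrial members (mt) at the right. Filled points passed an edgeR adjusted p of 0.05, short black lines are medians, and the dashed red line is the median of all genes, 0.16. The 5 filled points above 2.8 in complex IV are tissue isoforms, of which 4 passed the filter on low counts only through the kidney. On library totals without TMM the nuclear median turns from -0.29 to 0.69 and the median of all genes is 1.13.

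NMN against water asked whether the precursor of NAD+, the electron carrier that feeds complex I, changed the transcripts of the chain. No member passed the edgeR test in any of the 4 comparisons. The medians of nuclear members were -0.09 and -0.13 in the liver at 1340 and 2680 mg/kg/d, the second turning to 0.02 without TMM and the first to 0.00 without NMN replicate 4. For the kidney they were -0.08 and 0.10. The medians of all tested genes lay between -0.00273 and 0.00447.

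In the liver at 1340 mg/kg/d 0 of 94 tested members were called, beside 0.0161% of 12449 genes called higher and 0% lower, with 1 member at an unadjusted p under 0.05 and 0 called by DESeq2. Nuclear members had a median log2 fold change of -0.09, with 14 of 87 above 0, and mitochondrial members a median of 0.05. The mitochondrial value lay between -0.00472 and 0.101 with 1 library left out. Without NMN replicate 4, the library that stood apart, the nuclear median was 0.00. The member with the smallest p was Ndufa4l2, an inducible relative of Ndufa4, which measured 1.66, 4.96, 5.57 and 3.31 CPM in water and 2.81, 1.14, 1.77 and 1.52 CPM in NMN mice. These groups overlapped, and the log2 fold change of -1.10 (SE 0.424) had an edgeR adjusted p of 0.63. Ndufaf3 was at -0.41, Ndufc1 at -0.29, mt-Nd5 at 0.28, mt-Co1 at 0.15 and Uqcrc2 at 0.12, also without a call. Leaving out 1 library moved Ndufaf3 between -0.539 and -0.195, mt-Nd5 between 0.0774 and 0.518, and mt-Co1 between 0.0458 and 0.262.

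In the liver at 2680 mg/kg/d 0 of 93 tested members were called, beside 3.05% of 12477 genes called higher and 4.03% lower. At an unadjusted p under 0.05 there were 19 members. DESeq2 called 2, edgeR without the filter on low counts 3 (Atp5g1, Ndufa4l2 and Ndufaf3) and edgeR with the replicate number as a block 1 (Atp5g1). Ndufaf3, an assembly factor of complex I named for that call, was at -0.997 in the filtered fit (edgeR adjusted p = 0.142). The nuclear median was -0.13, with 17 of 86 above 0, and on library totals without TMM it was 0.02 with 48 of 86 above 0, beside a median of 0.16 for all genes. In 13 of 86 nuclear members every NMN library lay below every water library and in 3 above, beside 14.6% and 14.7% of all genes. The member with the smallest adjusted p was again Ndufa4l2, at 3.72, 4.77 and 5.84 CPM in water and 1.48, 2.06 and 2.15 CPM in NMN mice. Its groups did not overlap, and the log2 fold change was -1.34 (SE 0.372, edgeR adjusted p = 0.0534). With NMN replicate 2 left out, 2 nuclear members passed, 1 of them Atp5g1.

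Atp5g1, which encodes the c subunit of the ATP synthase rotor, measured 211.4, 212.3 and 164.2 CPM in water and 125.6, 159.7 and 117.1 CPM in NMN mice of that schedule. Every NMN library was lower, and the log2 fold change of -0.55 (SE 0.156) had an edgeR adjusted p of 0.0584. DESeq2 called it and Ndufa4l2. The other genes for the same c subunit were at -0.27 for Atp5g2 and -0.33 for Atp5g3. Ndufa7 was at -0.49 (edgeR adjusted p = 0.0827), and Atp5s at 0.65, Ndufaf4 at 0.34 and Ndufa1 at 0.32 were the highest by p, none called. The medians by complex were -0.16 for complex I, -0.13 for complex II, -0.12 for complex III, -0.09 for complex IV and -0.14 for complex V. That of the mitochondrial members was 0.03, 0.18 on library totals, and turned to -0.08 without NMN replicate 1 and to -0.05 without water replicate 2.

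Around the chain, 4 genes of the lists passed in that comparison, beside 3.05% of all genes called higher and 4.03% lower. Idh2, the NADP-dependent isocitrate dehydrogenase of mitochondria, measured 159.1, 160.8 and 143.6 CPM in water and 68.2, 91.0 and 84.4 CPM in NMN mice, without overlap (log2 fold change -0.93, SE 0.14, edgeR adjusted p = 0.00559). Cox14, an assembly factor of complex IV, measured 38.9, 33.8 and 28.5 CPM against 17.7, 17.3 and 17.0 CPM, also without overlap (log2 fold change -0.96, edgeR adjusted p = 0.0122). Mrpl54, a protein of the mitochondrial ribosome, was lower by a log2 fold change of -1.01 (edgeR adjusted p = 0.0122). Pprc1, a coactivator related to Ppargc1a, was higher, at 13.7, 18 and 14.2 CPM in water and 25.3, 29.0 and 32.8 CPM in NMN mice (log2 fold change 0.92, edgeR adjusted p = 0.0196). Ppargc1a was at 0.87 (edgeR adjusted p = 0.142). The counts were 0 higher and 1 lower of 42 assembly factors, of 14 genes of the tricarboxylic acid cycle, and of 77 of the mitochondrial ribosome, 1 higher and 0 lower of 22 regulators, and none in the other 4 lists. Of 6 hepatocyte markers 1 was called lower and their median was -0.33. Of 3 red blood cell markers 1 was called lower, and Alas2 averaged 141.1 CPM in water and 42.9 CPM in NMN mice. The globins of that list did not follow it, with Hba-a1 at 9.07 and 8.98 CPM and Hbb-bs at 14.8 and 19.5 CPM. The median log2 fold change of the 3 was -0.00864. The 1 tested pancreas marker, Cela1, was called lower too, at a mean of 31.17 against 6.932 CPM. Prss2, Cpa1 and Amy2a5 of the same list averaged 0 CPM in both groups, so Cela1 is not read as a measure of pancreas. No marker of another list was called. Reads outside annotated genes were 4.56, 4.10 and 4.35 per 100 counted in water and 6.496, 4.93 and 5.28 in NMN libraries, and mitochondrial rRNA took 0.115% to 0.132% and 0.145% to 0.190% of reads, both without overlap. The part of these shifts in the members' values was not tested.

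In the kidney at 1340 mg/kg/d 0 of 98 tested members were called, beside 0.0668% of 14972 genes called higher and 0.0534% lower, with 3 at an unadjusted p under 0.05 and 0 called by DESeq2. The nuclear median was -0.08, with 17 of 91 above 0, and the mitochondrial one -0.05. Leaving out 1 library moved the first between -0.14 (without water replicate 2) and -0.00798 (without water replicate 1), and the second between -0.13 (without NMN replicate 1) and -0.00673 (without NMN replicate 2). Ndufc2, an accessory subunit of complex I, had the smallest p, with a log2 fold change of -0.29 (edgeR adjusted p = 0.418). Ndufv3 was at -0.33 and Ndufa1 at -0.32, and Ndufaf5 at 0.28, Cox6b2 at 0.26 and Ndufs1 at 0.09 led the other direction by p. With 1 library left out, Ndufc2 lay between -0.359 and -0.179 and Ndufa1 between -0.391 and -0.21. In the same fits Cox6b2 lay between 0.121 and 0.352 and Ndufs1 between 0.013 and 0.16. Of the lists 1 gene passed, Asns, the asparagine synthetase of the integrated stress response, at 1.37 (edgeR adjusted p = 0.0393).

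In the kidney at 2680 mg/kg/d 0 of 99 tested members were called, beside 0.118% of 15245 genes called higher and 0.282% lower. At an unadjusted p under 0.05 there were 14 members, DESeq2 called 0 and edgeR without the filter on low counts called 2 (Ndufb8 and Ndufs7), and 71 of 91 nuclear members were above 0 with a median of 0.10, which was 0.06 without NMN replicate 3. Every NMN library lay above every water library for 25 of 91 nuclear members and below for 1, beside 8.78% and 8.39% of all genes. Ndufb8, an accessory subunit of complex I, measured 177.7, 170.7 and 174.2 CPM in water and 199.5, 211.2 and 225.7 CPM in NMN mice. Its groups did not overlap, and the log2 fold change was 0.28 (SE 0.0797, edgeR adjusted p = 0.19). Sdhd, a membrane anchor of complex II, was at 0.24 and Ndufs7, an iron-sulfur subunit of complex I, at 0.34. mt-Nd3, which had few reads, was at -0.77, Ndufv3 at -0.19 and Ndufaf1 at -0.13. All 10 core subunits were above 0, from 0.01 for Ndufs1 to 0.24 for Cox5a, and in the liver of that schedule all 10 were below 0, from -0.34 for Sdhb to -0.05 for Uqcrfs1, but on library totals without TMM 6 of these 10 liver values were above 0, and none was called in either organ. The medians by complex were 0.07, 0.18, 0.13, 0.12 and 0.12 for complexes I to V and -0.07 for the mitochondrial members. Of the markers beside these values, 6 proximal tubule genes had a median of -0.25, among them the endocytic receptor Lrp2 at a mean of 1427 CPM in water and 1168 CPM in NMN mice, and 3 red blood cell genes a median of -1.25, with none called. Reads outside annotated genes were 9.54 to 10.4 per 100 counted in water and 8.86 to 9.21 in NMN libraries. Counted reads were 16358886 to 18983689 in water and 22922994 to 33872983 in NMN libraries, both measures without overlap. The part of these in the members' values was not tested. No gene of the 8 lists passed, and Lrpprc, which stabilises mitochondrial messengers, was at 0.29 (edgeR adjusted p = 0.148).

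**Figure D5:**
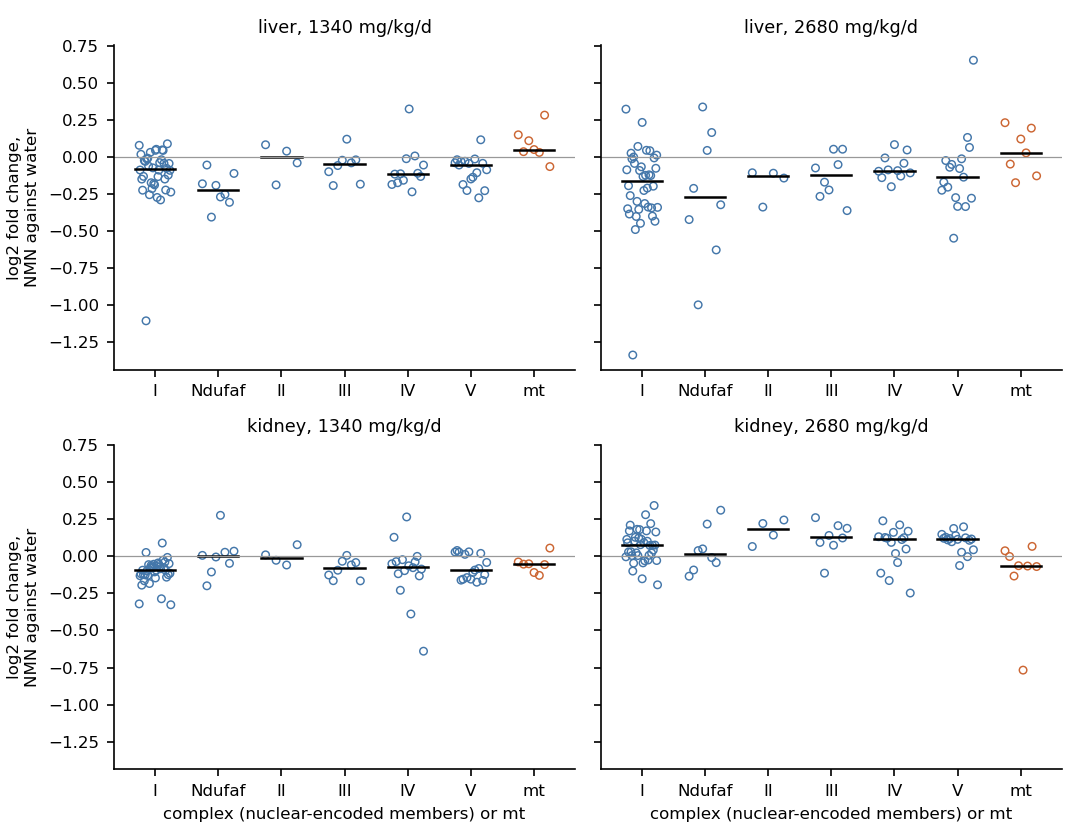
Log2 fold change of NMN against water for each tested member in the 4 comparisons, by complex for nuclear members, with Ndufaf factors apart and mitochondrial members (mt) at the right. All points are open because no member passed an edgeR adjusted p of 0.05, and black lines are medians. Complex I medians are -0.08 (1340 mg/kg/d) and -0.16 (2680 mg/kg/d) for the liver, and -0.09 and 0.07 for the kidney. On library totals without TMM the nuclear median of the liver at 2680 mg/kg/d turns from -0.13 to 0.02.

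Whether the NMN difference itself differed between organs or schedules was tested as an interaction. The tests of NMN between organs treated liver and kidney libraries as independent. Water libraries of the same number deviated together across organs, with mean correlations of 0.308 at 1340 and 0.256 at 2680 mg/kg/d. A pairing of the organs by mouse was not modelled in these tests. At 2680 mg/kg/d the NMN difference of nuclear members was higher in the kidney than in the liver by a median of 0.29, with 79 of 91 above 0, which without TMM was 0.12 and 62 of 91 beside -0.15 for all genes, and 1 member passed, beside 1.6% of 15811 genes called higher and 1.05% lower. That member was Atp5g1. In the kidney it measured 112.3, 110.6 and 94.1 CPM in water and 113.3, 128.3 and 120.4 CPM in NMN mice, so that the difference of log2 fold changes was 0.75 (SE 0.183, edgeR adjusted p = 0.045). Leaving out 1 library took the call of Atp5g1 away in 10 of 12 fits, all but those without liver water replicate 3 (3 nuclear members called) and without liver NMN replicate 2 (10 called). Its value lay between 0.675 and 0.893 over the 12 fits. On library totals without TMM the Atp5g1 value was 0.585 and 0 passed, while DESeq2 called 10. Sdhb, the iron-sulfur subunit of complex II, was at 0.57 (edgeR adjusted p = 0.0598) and Ndufa7 at 0.63 (edgeR adjusted p = 0.0664). The mitochondrial median was -0.10, and it lay between -0.15 and 0.0324 with 1 library left out.

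At 1340 mg/kg/d no member of the 98 passed the test of the NMN difference between organs, beside 0% of 15614 genes called higher and 0% lower. The nuclear median of the difference was 0.02 and lay between -0.0706 and 0.113 with 1 library left out. At an unadjusted p under 0.05 there was 1 member. Between schedules no member passed in the liver, beside 0.0149% of 13412 genes called higher and 0.0596% lower, or in the kidney, beside 0% of 15989 called higher and 0.00625% lower. The nuclear median of that difference was -0.04 in the liver and 0.18 in the kidney, where 80 of 91 nuclear members were above 0. On library totals without TMM the liver value turned to 0.09 beside 0.14 for all genes, and with 1 library left out it lay between -0.13 and 0.0421. There were 1 and 3 members at an unadjusted p under 0.05, and DESeq2 called 0 in each of these comparisons.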

How the data were processed

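PolyA RNA of 28 libraries was sequenced by the study. The authors aligned reads with STAR, counted them per gene with HTSeq and tested with DESeq2, and the deposited files hold raw counts per Ensembl gene, not normalized. The build is named mm19 in the methods, which matches no mouse assembly used here, so coordinates come from RefSeq GRCm38.p6 and transcripts from GENCODE M21. Of 54446 identifiers 53229 matched M21 by version and 1180 under another version, and 37 did not match. Lines for reads outside genes, ambiguous reads and reads with more than 1 alignment were left out of library sizes and tests. There were 6.10 to 18.1 reads outside genes per 100 counted in the liver at 1340 mg/kg/d.

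The counts were tested with edgeR 4.0.16 (R 4.3.3) by the quasi-likelihood test after filterByExpr and TMM, with Benjamini-Hochberg adjustment over all tested genes and a threshold of 0.05. NMN comparisons used only the libraries compared, schedule comparisons the 14 libraries of an organ, the organ comparison the 14 water libraries with schedule as a term, and differences of differences an interaction term. CPM were scaled by TMM over all 28 libraries. TMM factors ranged from 0.653 to 0.831 in the liver and from 1.22 to 1.5 in the kidney. Alternatives were RLE scaling, no filter, DESeq2 1.42.0, a replicate block, mitochondrial genes left out, single schedules, each library left out, and library totals without TMM, the last chosen after seeing the data. Scripts were tested on simulated data. Depth was 12688324 to 33872983 counted reads, and the precision of members with few reads is limited by counting.

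Liver and kidney water libraries of the same number deviated together, with mean correlations of 0.308 at 1340 mg/kg/d (0.185 to 0.423) and 0.256 at 2680 mg/kg/d (0.153 to 0.353), whereas NMN libraries did not all do so (0.144, -0.0185 to 0.284, and 0.0156, -0.057 to 0.0966), and the labels do not say whether they came from the same mouse. The text names the 13 mitochondrial members, listed core subunits, isoform pairs and regulators, the members with the smallest p in each NMN comparison (3 in each direction), the 5 called members with the largest change in each direction in organ and schedule comparisons, and the leading genes of each list. Members and lists were chosen with earlier results of these data known.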

Additional observations from a re-analysis of the deposited data

Results flagged for a closer look

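Among 138 checks of named members in groups of 4 libraries, 10 had 1 library far from the other 3, and how often chance alone gives such a flag was not measured. In the liver NMN mice at 1340 mg/kg/d, replicate 4, the library with the most reads outside genes, was apart for Atp5g1 at 141.2 CPM, Ndufaf4 at 52.38 CPM, Ndufc2 at 67.27 CPM and Ndufs1 at 112.0 CPM. In kidney NMN mice at 1340 mg/kg/d, replicate 3 was apart for Cox8b at 3.536 CPM, where it also had the highest Ucp1, and for Ndufs7 at 115.5 CPM, and replicate 2 for Cox6a2 at 2.147 CPM. In water mice at 1340 mg/kg/d, liver replicate 2 was apart for mt-Nd2 at 5586 CPM, kidney replicate 1 for Ndufaf1 at 23.82 CPM and kidney replicate 3 for mt-Co1 at 22560 CPM.

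The NMN difference of Atp5g1 at 2680 mg/kg/d differed between kidney and liver by 0.749 on the log2 scale in the test of that difference (edgeR adjusted p = 0.045). The call was lost in 10 of 12 fits that left out 1 library, and on library totals without TMM, where the value was 0.585. Over the 12 fits the value lay between 0.675 and 0.893.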

How the results depend on the processing

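Among the counts of calls, medians and read shares behind the main comparisons, 801 values stayed within a set margin under an alternative and 43 moved beyond it. The margin was a fixed ratio for counts of calls and the spread between libraries for medians and shares. A median within that margin could still change sign. On library totals without TMM, the nuclear median of kidney against liver turned to 0.692 and the mitochondrial one was 1.39, and Ndufa4l2 (0.0907), Ndufa7 (0.119) and Ndufaf1 (0.0905) reversed. On the same totals, the mitochondrial median was 0.179 for NMN in the liver at 2680 mg/kg/d, 0.83 between schedules in the liver, where 16 nuclear members were called, and 1.41 in the kidney, where the nuclear median was -0.248. NMN by organ at 2680 mg/kg/d then had 0 calls and medians of 0.123 (nuclear) and -0.258 (mitochondrial).

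Without a filter on low counts, nuclear calls were 3 for NMN in the liver and 2 in the kidney at 2680 mg/kg/d and 2 for NMN by organ, the mitochondrial median between schedules in the kidney was 1.15, and 2 mitochondrial members differed by organ and schedule. DESeq2 gave 2, 10 and 3 calls for NMN in the liver at 2680 mg/kg/d, NMN by organ at 2680 mg/kg/d and mitochondrial members by organ and schedule, and a mitochondrial median of 1.17 between schedules in the kidney. The organ comparison had 37 nuclear and 2 mitochondrial calls and a mitochondrial median of 0.208 in the 1340 mg/kg/d schedule alone, and 58, 7 and 0.824 in the other.

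Leaving out each library gave 0 to 2 nuclear calls for NMN in the liver at 2680 mg/kg/d, 4 to 10 between schedules in the liver, 0 to 10 for NMN by organ at 2680 mg/kg/d, and 0 to 1 mitochondrial calls by organ and schedule. The cause of these shifts was not tested.

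With the replicate number as a block, NMN in the liver at 2680 mg/kg/d had 1 nuclear call, Atp5g1, and kidney against liver had 68. NMN and water libraries of the same number did not all deviate together, with mean correlations at 1340 and 2680 mg/kg/d of 0.0415 and 0.204 for liver libraries, and 0.0814 and -0.0179 for kidney libraries, so they share only a number. No paired analysis was possible between the schedules because different mice carry those numbers. The ratio of mitochondrial shares between schedules, 1.57 in the liver and 2.25 in the kidney over counted reads, was 1.08 and 1.06 over reads of the mitochondrial genome and 1.12 and 1.15 over reads of the members. The former shares lie near their ceiling (91.0% to 98.2% in the liver, 93.2% to 98.8% in the kidney), and the latter went from 75.2% to 84.0% and from 79.4% to 91.5%. The ratio of mitochondrial to nuclear member reads rose by a factor of 1.7 and 2.76. Members with few reads, such as Cox7b2, could not be compared at this depth.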
